A study of Homo sapiens with 15 samples.

Results

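The miR-23b, miR-27b and miR-24-1 cluster is a group of 3 microRNA hairpins on human chromosome 9. Its 5 mature products with an entry of their own were followed: hsa-miR-23b-5p, hsa-miR-23b-3p, hsa-miR-27b-5p, hsa-miR-27b-3p and hsa-miR-24-1-5p, with the species prefix hsa dropped below where the name is clear. They were chosen by exact name, 5 of the 1619 mature miRNA entries, and miR-24-3p was left out because the same sequence is also made at a second locus. The small RNA came from DiFi cells, a human colorectal cancer line long kept in culture, in a study of culture conditions for collecting the carriers of extracellular small RNA that the cells secrete. HF6 and HF7 each supplied 1 cell pellet, 3 samples of plate cells (plates 1, 2 and 3), 1 unfiltered HDM sample and 1 filtered HDM sample, and HDM media and regular media had 1 library each. What HDM and HF stand for is not written out in the labels, which name no treatment and do not say how the media libraries were collected, so these names are used as given. A further sample of HDM medium without cells was not analysed here.

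As background, each hairpin is cut by Drosha and Dicer into a short duplex with a 5p and a 3p arm. One arm is usually kept by Argonaute, where bases 2 to 8 (the seed) pair with target messages, and the other arm is usually degraded. A sister cluster on chromosome 19 encodes miR-23a, miR-27a and miR-24-2, whose main products carry the same seeds. The miR-23 and miR-27 families are known for roles in vessel growth, lipid metabolism and epithelial tumours, and miR-24 for roles in the cell cycle and apoptosis.

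The mature sequences are shown because 3 of the 5 differ between the clusters at many bases and the other 2 at only 1. They are from RefSeq (GRCh38.p14), 5′ to 3′, with the seed in capitals, and all 5 members and all 9 related entries were matched. The 5p members come first.
miR-23b-5p: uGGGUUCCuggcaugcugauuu
miR-27b-5p: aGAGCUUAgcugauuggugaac
miR-24-1-5p: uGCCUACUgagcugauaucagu
The 3p members follow, each with its chromosome 19 counterpart.
miR-23b-3p: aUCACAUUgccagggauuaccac
miR-23a-3p: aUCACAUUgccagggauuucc
miR-27b-3p: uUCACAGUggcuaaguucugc
miR-27a-3p: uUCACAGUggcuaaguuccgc
No seed is shared among the 5 members. MiR-23b-3p shares its seed with miR-23a-3p, and miR-27b-3p shares its own with miR-27a-3p. Among the 5p members, miR-23b-5p shares its seed with miR-23a-5p and miR-24-1-5p with miR-24-2-5p. The seeds of miR-27b-5p and miR-27a-5p differ. Over the 21 bases that both have, miR-23b-3p and miR-23a-3p differ by 1 substitution, A19T, and miR-23b-3p is 2 nt longer. MiR-27b-3p and miR-27a-3p differ by T19C. In these substitutions the member's base comes first, positions count from 1 at the 5′ end and U is written T, as in the deposited table. The 5p pairs differ at 7 of 22 bases (miR-23), 8 of 22 (miR-27) and 6 of 22 (miR-24-1 and miR-24-2).

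The hairpins are given because the results turn on which arm was counted. They are written 5′ to 3′ on the plus strand with the mature arms in capitals, in the order 5p and 3p.
MIR23B: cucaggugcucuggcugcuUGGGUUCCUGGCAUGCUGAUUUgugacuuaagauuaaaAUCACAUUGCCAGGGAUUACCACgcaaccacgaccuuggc
MIR27B: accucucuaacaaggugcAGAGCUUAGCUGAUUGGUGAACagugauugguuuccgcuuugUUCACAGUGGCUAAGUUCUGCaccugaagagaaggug
MIR24-1: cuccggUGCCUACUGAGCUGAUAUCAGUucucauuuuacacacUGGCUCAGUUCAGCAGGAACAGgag
On GRCh38 they lie at chr9:95085208-95085304, chr9:95085445-95085541 and chr9:95086021-95086088, within 881 bases. All 3 lie inside C9orf3 (current symbol AOPEP), a protein-coding gene on the same strand, in GENCODE 29. MIR23B and MIR27B overlap no exon of it and are intronic, and MIR24-1 overlaps 1 exon of a nonsense-mediated-decay transcript and the antisense gene MIR3074.

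Library totals ran from 205738 to 4896917 counts, with the HF7 pellet (313380) and the HF7 unfiltered HDM library (205738) far below the rest. Levels are given as TMM-normalised CPM, a count scaled by its library's total and a TMM factor. A count of 0 allows up to 3 counts, which, scaled by the library total alone, is 0.613 CPM in the deepest library and 14.6 CPM in the shallowest. Such floors, and all intervals below, cover counting error only. The HF6 and HF7 libraries of each of the 6 groups were not copies of each other (chi-square per degree of freedom 11.1 to 105); other pairs were not checked. All 8 gut epithelium markers (miR-192, miR-194, miR-215 and the miR-200 family) were present in every group. Their summed level was 289546 to 366768 TMM-normalised CPM in the cell libraries and 183175 to 241897 in the HDM libraries. Leukocyte markers summed to 1545 to 4222 CPM and erythroid markers to at most 10.4, and 2 of 4 stromal markers had an entry, at most 1.43. The labels do not say that HF6 and HF7 are separate cultures, so p-values measure the spread between these libraries, which may be technical.

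All 5 members passed the low-count filter, as did 521 of the 1619 entries. The 3p members dominated. Over the 12 replicated libraries miR-27b-3p ranked 22 by mean CPM and miR-23b-3p 31, against 135 for miR-27b-5p, 236 for miR-24-1-5p and 263 for miR-23b-5p. The 5 members together made up 1.06% and 1.52% of the counts in the 2 pellets, 1.34% to 1.65% in the 6 plate libraries, and 2.29% to 2.51% in the 4 HDM libraries. The 2 media libraries lay at 2.51% and 2.38%. The summed share of the cluster was therefore higher in each HDM and media library than in each cell library. Most of the sum was miR-27b-3p and miR-23b-3p, and miR-24-1-5p alone showed no such order. The shares use total counts, and on that scale the median log2 fold change of all tested miRNAs was also positive. It was 0.64 in unfiltered and 0.56 in filtered HDM against pellets, and 0.15 in HDM against plates.

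**Figure D1:**
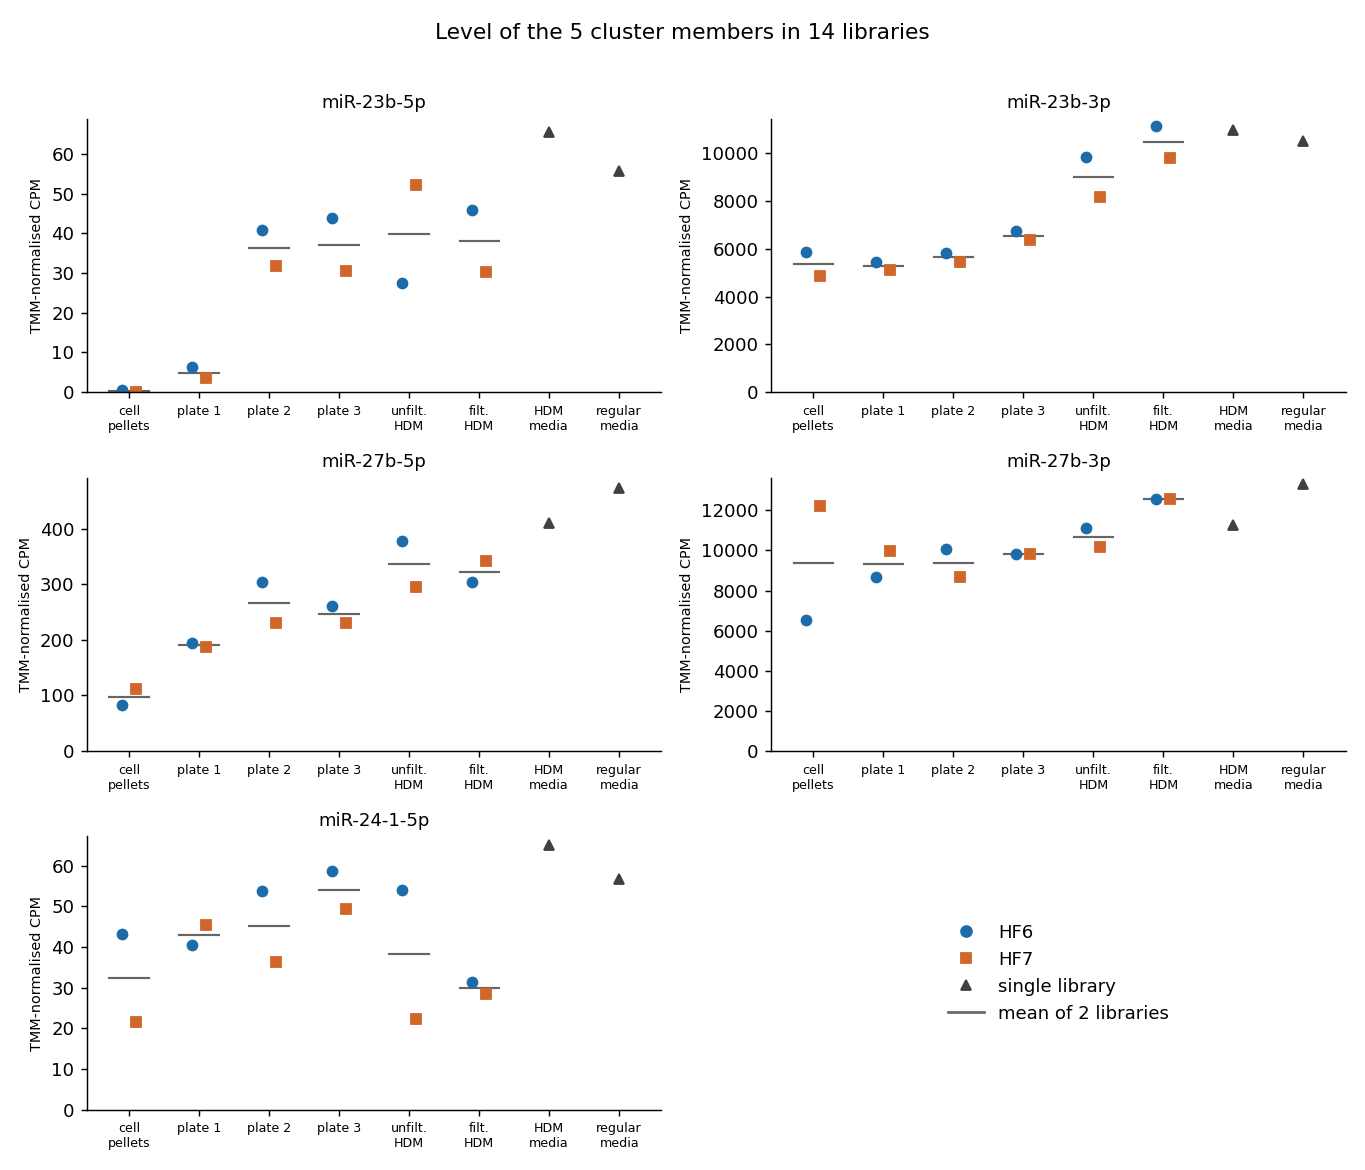
TMM-normalised CPM (linear axis from 0) of each member in the 14 libraries, with circles for HF6, squares for HF7, triangles for the single media libraries and a line at the mean of each pair. MiR-23b-5p has 2 and 0 counts in the pellets and is low on plate 1, miR-23b-3p sits higher in the HDM and media libraries than in every cell library, and miR-24-1-5p shows no such order.

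Each comparison was fitted across all 521 miRNAs with edgeR's quasi-likelihood test, and calls were made at an adjusted p (Benjamini-Hochberg) under 0.05. Between unfiltered HDM and the cell pellets, 3 of the 5 members rose, against 34.5% of all miRNAs called in either direction and 18.8% called higher. Between filtered HDM and the same pellets, the same 3 members rose, against 41.3% called and 24.6% called higher. Both comparisons share the pellets and are not independent of each other. The 3 were miR-23b-5p, miR-23b-3p and miR-27b-5p. The median log2 fold change of the members was 0.75 (unfiltered) and 0.96 (filtered), beside 0.21 and 0.30 over all miRNAs tested. The libraries are bulk small RNA from 1 cell line, so a level is relative to the other miRNAs of its library. No spiked-in RNA sets an absolute scale.

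Between the 4 HDM libraries and the 6 plate libraries, 3 of the 5 members rose (the same 3), against 33% of all miRNAs called and 16.7% called higher. Between the pellets and the plates, 2 of the 5 fell in the pellets, against 35.5% called and 20.3% called lower. Between plates 2 and 3 and plate 1, 1 of the 5 was higher on plates 2 and 3, against 31.1% called and 17.9% called higher. With members this few, these counts are read against those shares and show nothing particular to the cluster. In the same contrasts 6 of the 8 gut epithelium markers fell in unfiltered HDM against pellets, 5 of 8 in filtered HDM against pellets and 6 of 8 in HDM against plates. Of all 521 miRNAs, 82, 87 and 85 fell in these 3 contrasts. Both miR-126 arms, the endothelial markers, fell in all 3 of them, from 114 to 184 summed CPM in pellets to 21.0 to 31.9 in HDM. Of the 4 leukocyte markers tested, 2 rose in all 3 (miR-150-5p, from a mean of 0.614 CPM in pellets to 56.9 in HDM, and miR-155-5p, from 41.3 to 228), while miR-142-5p fell in all 3 and miR-142-3p in filtered HDM against pellets and in HDM against plates. The erythroid miR-451a fell in all 3 and the muscle miR-1-3p in both pellet comparisons. In pellets against plates, 3 of the 8 gut markers, miR-126-3p and miR-1-3p were higher in pellets, and miR-155-5p was lower. On plates 2 and 3 against plate 1, 1 gut marker rose and 3 fell, miR-126-3p fell, and miR-142-3p and miR-155-5p rose. In a study of 1 cell line these lists are only named sets, and a change in one does not show that such cells were present. How the markers relate to the members' changes was not tested.

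**Figure D2:**
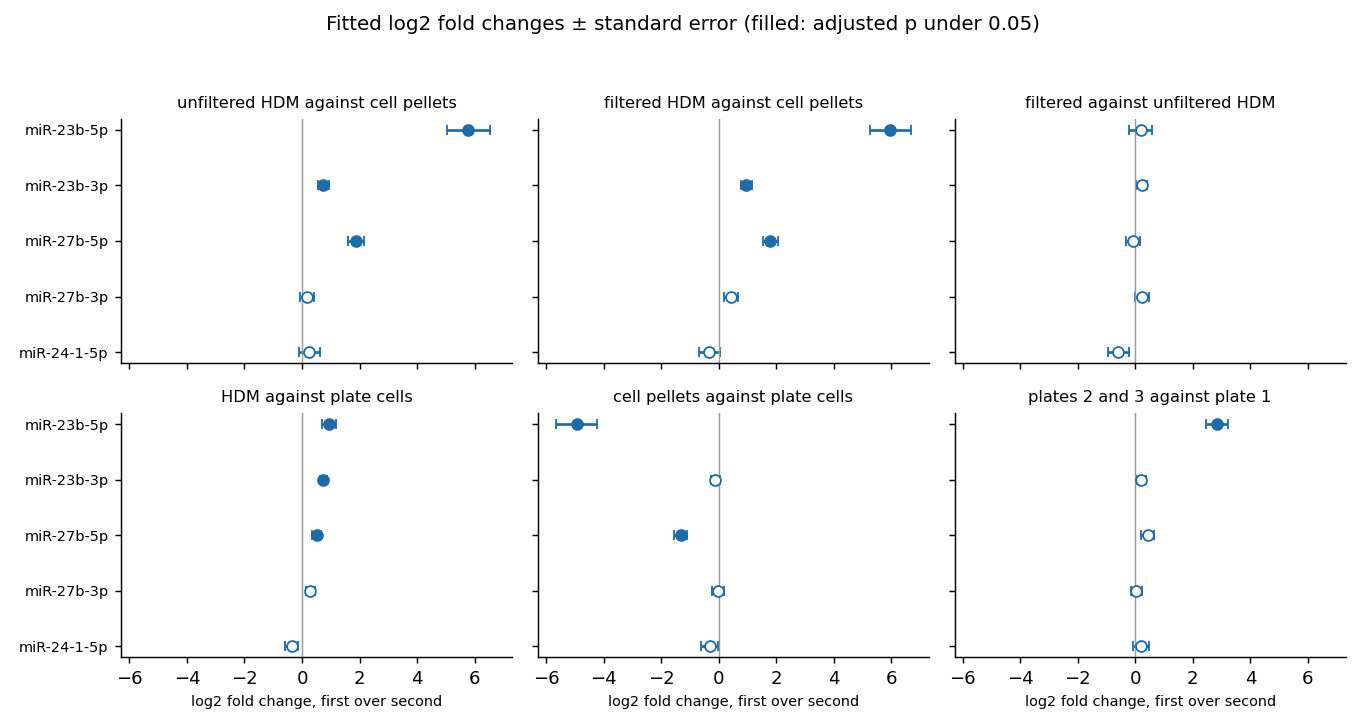
Fitted log2 fold changes of the 5 members in 6 comparisons, first group over second, with bars of 1 standard error and filled points where the edgeR adjusted p is under 0.05. The largest values belong to miR-23b-5p (5.78 and 5.97 in HDM against pellets), and no point is filled for filtered against unfiltered HDM.

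The most abundant product of the first hairpin was hsa-miR-23b-3p, the arm whose seed defines the miR-23 family. Its level was 5859 and 4875 CPM in the HF6 and HF7 pellets, 5457 and 5098 on plate 1, 5821 and 5464 on plate 2, and 6743 and 6369 on plate 3. In unfiltered HDM it was 9835 and 8168 CPM, and in filtered HDM 11133 and 9816 CPM. Every HDM library was above every cell library. Of all 521 miRNAs tested, 86 had no overlap between the HDM and plate libraries, in either direction. Between pellets and unfiltered or filtered HDM, 277 and 344 had none. The group means were 5367 ± 695 in pellets (SD, n = 2), 5825 ± 622 on the plates (SD, n = 6) and 9738 ± 1215 in HDM (SD, n = 4).

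MiR-23b-3p rose 1.68-fold in unfiltered HDM over pellets (log2 fold change 0.75 ± 0.19 SE, edgeR adjusted p = 0.00759) and 1.95-fold in filtered HDM over pellets (0.96 ± 0.19, edgeR adjusted p = 0.00101). Against the plates it rose 1.67-fold (0.74 ± 0.12, edgeR adjusted p = 0.000344). This last call was kept in all 11 other settings and in all 12 fits that left out 1 library. The call in unfiltered HDM was lost without the HF6 unfiltered HDM library (0.60, edgeR adjusted p = 0.0860) and with the plates pooled by HF number (edgeR adjusted p = 0.0512). Because reads may be shared between near-identical entries, miR-23b-3p was also summed with miR-23a-3p. The sum was not called in unfiltered HDM (0.36 ± 0.19, edgeR adjusted p = 0.163) or filtered HDM (0.41 ± 0.19, edgeR adjusted p = 0.0982) against pellets. Among the cell libraries miR-23b-3p was not called between pellets and plates (-0.11 ± 0.16, edgeR adjusted p = 0.590) or between plates 2 and 3 and plate 1 (0.20 ± 0.17, edgeR adjusted p = 0.387).

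The other arm of the same hairpin, hsa-miR-23b-5p, had 2 counts in the HF6 pellet (0.614 CPM) and 0 counts in the HF7 pellet, where 3 counts are 9.57 CPM before TMM scaling. It had 22 and 9 counts on plate 1 (6.29 and 3.50 CPM). On plate 2 its level was 40.9 and 31.8 CPM and on plate 3 43.8 and 30.5 CPM. The HF6 pellet was near 0 and plate 1 was low in both HF6 and HF7, below plates 2 and 3. The 0 of the shallow HF7 pellet allows a level above both plate 1 values, so it does not separate pellets from plate 1.

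In unfiltered HDM miR-23b-5p was at 27.4 and 52.1 CPM, the second from 14 counts in the shallow HF7 library, and in filtered HDM at 46.0 and 30.3 CPM. The HDM libraries overlapped with plates 2 and 3, whose mean was 36.8 ± 6.57 CPM (SD, n = 4) beside 38.9 ± 12 in HDM (SD, n = 4). In order of mean level, plate 1 was separate from plate 2, and plates 2 and 3, filtered HDM and unfiltered HDM overlapped from each to the next. Pellets and plate 1 could not be placed apart, since only the HF6 pellet was measured below plate 1.

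Against the 2 pooled pellet counts, miR-23b-5p was 52.7 times as high in unfiltered HDM (exact 95% counting interval 14.1 to 443) and 70.2 times as high in filtered HDM (19.1 to 584). The same ratio was 9.02 for plate 1 (2.30 to 77.8), 65.2 for plate 2 (17.9 to 541) and 59.7 for plate 3 (16.3 to 497). In the fit, miR-23b-5p rose in unfiltered HDM (log2 fold change 5.78 ± 0.76, edgeR adjusted p = 4.9e-05) and in filtered HDM (5.97 ± 0.72, edgeR adjusted p = 1.1e-05) over pellets. It fell in pellets against plates (-4.94 ± 0.72, edgeR adjusted p = 0.000103). With pellets at 2 and 0 counts, these fitted values rest on the 2 counts of the HF6 pellet: without it they were 9.26, 9.5 and -8.47. Against plate 1 alone the pellets missed the threshold (-3.05 ± 0.91, edgeR adjusted p = 0.0510).

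Among the plates, miR-23b-5p was 7.17 times as high on plates 2 and 3 as on plate 1 (log2 fold change 2.84 ± 0.38, edgeR adjusted p = 6.8e-05). It rose in HDM over all plates by 0.94 ± 0.25 on the log2 scale (edgeR adjusted p = 0.0106). That call depended on plate 1: the value was -0.01 ± 0.26 (edgeR adjusted p = 0.979) against plates 2 and 3 alone and 2.83 ± 0.39 (edgeR adjusted p = 6.0e-05) against plate 1 alone. It was also lost without the HF6 filtered HDM library (0.77, edgeR adjusted p = 0.0772) and with the plates pooled by HF number (0.55 ± 0.58, edgeR adjusted p = 0.563).

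The second hairpin gives hsa-miR-27b-3p, the most abundant member, whose seed defines the miR-27 family. Its level was 6539 and 12199 CPM in the HF6 and HF7 pellets, 8702 and 9965 on plate 1, 10094 and 8691 on plate 2, and 9799.9 and 9829 on plate 3. In unfiltered HDM it was 11117 and 10179 CPM and in filtered HDM 12566 and 12563 CPM. The 2 pellets were the farthest apart of any pair, the HF7 pellet being the shallow one, while the plate and HDM libraries lay between 8691 and 12566. The HDM libraries were all above the plate libraries, but narrowly. The shallow HF7 unfiltered HDM library was at 10179 CPM from 2734 counts, beside 10094 on HF6 plate 2. Of all 521 miRNAs tested, 86 had no overlap between the HDM and plate libraries, in either direction.

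MiR-27b-3p was not called in unfiltered HDM against pellets (0.19 ± 0.24, edgeR adjusted p = 0.588), filtered HDM against pellets (0.43 ± 0.24, edgeR adjusted p = 0.168) or HDM against plates (0.28 ± 0.15, edgeR adjusted p = 0.176). These calls depended on 1 library and on the scaling. Without the HF7 pellet miR-27b-3p was called higher in unfiltered HDM (0.70, edgeR adjusted p = 0.00869) and in filtered HDM (0.94, edgeR adjusted p = 0.000602) than in the remaining pellet, and lower in that pellet than on the plates (-0.54, edgeR adjusted p = 0.0237). In HDM against plates it was called without either pellet (edgeR adjusted p = 0.0352 and 0.0361). With total counts as the scaling it was called in all 3 (0.63, 0.66 and 0.47). Summed with miR-27a-3p it was not called in them, at -0.45, -0.40 and -0.02. With both pellets, pellets and plates gave -0.02 ± 0.20 (edgeR adjusted p = 0.939), a value that turned positive with RLE size factors (0.12). Plates 2 and 3 against plate 1 gave 0.04 ± 0.21 (edgeR adjusted p = 0.891), which was -0.03 with RLE size factors.

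The other arm, hsa-miR-27b-5p, was lowest in the pellets, at 82.0 and 112 CPM in HF6 and HF7. It was at 195 and 187 CPM on plate 1, 303 and 229.8 on plate 2, and 261 and 231 on plate 3. Unfiltered HDM held 377 and 294 CPM and filtered HDM 303 and 342 CPM. The pellets lay below every other library, plate 1 lay below plates 2 and 3, and the HDM libraries overlapped only with plate 2.

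MiR-27b-5p rose 3.67-fold in unfiltered HDM over pellets (1.88 ± 0.28, edgeR adjusted p = 0.000138) and 3.48-fold in filtered HDM (1.80 ± 0.27, edgeR adjusted p = 0.000110). It was 2.51-fold lower in pellets than on plates (-1.32 ± 0.24, edgeR adjusted p = 0.000674). These 3 calls were kept in every other setting and every fit without 1 library, against plate 1 alone too (-1.04 ± 0.27, edgeR adjusted p = 0.0347). The rise in HDM over plates was smaller (1.43-fold, 0.51 ± 0.16, edgeR adjusted p = 0.0233). It was lost in 7 of the 12 fits without 1 library, namely either plate 1 library, HF7 plate 2, HF7 plate 3, HF6 unfiltered HDM or either filtered HDM library (0.41 to 0.55). It was also lost in 3 of the 11 other settings: against plates 2 and 3 alone (0.37 ± 0.18, edgeR adjusted p = 0.136), with no low-count filter (0.51 ± 0.19, edgeR adjusted p = 0.0715) and with the plates pooled by HF number (0.50 ± 0.22, edgeR adjusted p = 0.158). Plates 2 and 3 against plate 1 missed the threshold (0.42 ± 0.22, edgeR adjusted p = 0.159).

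The third hairpin is represented by hsa-miR-24-1-5p, the arm opposite miR-24-3p. Its level was 43.3 and 21.6 CPM in the HF6 and HF7 pellets, 40.6 and 45.5 on plate 1, 53.8 and 36.4 on plate 2, and 58.7 and 49.3 on plate 3. In unfiltered HDM it was 54.0 and 22.3 CPM and in filtered HDM 31.3 and 28.5 CPM. The 2 lowest values came from the 2 shallow HF7 libraries, with 6 counts each. MIR24-1 overlaps the antisense MIR3074, and whether counting used strand is not given in the sources used here; the miR-3074 arms averaged 5.92 (5p) and 3.99 CPM (3p) over the 12 libraries. All groups overlapped with their neighbours in the order of the means.

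MiR-24-1-5p was called in no comparison. Its log2 fold change was 0.26 ± 0.38 in unfiltered HDM over pellets (edgeR adjusted p = 0.642), -0.33 ± 0.36 in filtered HDM over pellets (edgeR adjusted p = 0.478) and -0.35 ± 0.22 in HDM over plates (edgeR adjusted p = 0.246). Pellets against plates gave -0.32 ± 0.30 (edgeR adjusted p = 0.426) and plates 2 and 3 against plate 1 gave 0.20 ± 0.28 (edgeR adjusted p = 0.627). Its standard errors in these 5 comparisons (0.22 to 0.38) were larger than those of miR-23b-3p (0.12 to 0.19).

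Filtering changed no member past the threshold. Between filtered and unfiltered HDM, 0 of the 5 members were called by edgeR, 0 by DESeq2 and 0 reached an unadjusted p under 0.05, and 0.576% of all miRNAs were called. The log2 values were 0.19 ± 0.39 for miR-23b-5p, 0.22 ± 0.19 for miR-23b-3p, -0.08 ± 0.25 for miR-27b-5p, 0.24 ± 0.24 for miR-27b-3p and -0.59 ± 0.36 for miR-24-1-5p. Values that missed the threshold do not show equal levels. Between HF7 and HF6, 0 of the 5 members and 0% of all miRNAs were called by edgeR, and 0 members by DESeq2. Of the 521 miRNAs, 37 had an unadjusted p under 0.05, with 0 members among them, and DESeq2 called 1. The members lay between -0.36 ± 0.19 (miR-24-1-5p) and 0.12 ± 0.14 (miR-27b-3p).

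The chromosome 19 sister cluster was the natural comparison. Of 9 related entries (the arms of miR-23a, miR-27a and miR-24-2, miR-24-3p, miR-23c and both miR-3074 arms), all 9 were tested. Among them miR-23c lies on chromosome X and miR-3074 on chromosome 9. In unfiltered HDM against pellets 1 rose and 2 fell, and in filtered HDM 1 rose and 2 fell. In HDM against plates 1 rose and 3 fell, in pellets against plates 1 rose and 2 fell, and on plates 2 and 3 against plate 1 0 rose and 4 fell. Over all 521 miRNAs, 98 rose and 82 fell in unfiltered HDM against pellets, and 128 and 87 in filtered HDM. In HDM against plates 87 rose and 85 fell, in pellets against plates 79 and 106, and on plates 2 and 3 against plate 1 93 and 69. Filtered against unfiltered HDM and HF7 against HF6 called 0 of the related entries by edgeR. The 2 that fell in HDM against pellets were miR-27a-3p and miR-24-3p, and the 1 that rose was miR-27a-5p.

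MiR-27a-3p, which differs from miR-27b-3p by 1 base, averaged 9981 ± 4397 CPM in pellets (SD, n = 2), 9843 ± 1803 on plate 1 (SD, n = 2), 2913 ± 217 on plates 2 and 3 (SD, n = 4) and 2438 ± 227 in HDM (SD, n = 4). It was high in pellets and on plate 1 and low elsewhere. On plates 2 and 3 it fell by 1.76 ± 0.22 on the log2 scale against plate 1 (edgeR adjusted p = 3.6e-05), where miR-27b-3p was not called. MiR-23a-3p likewise fell there by 1.19 ± 0.16 (edgeR adjusted p = 6.8e-05), from 11466 ± 219 to 5017 ± 216 CPM. In HDM against pellets miR-27a-3p fell by 1.95 ± 0.27 in unfiltered HDM (edgeR adjusted p = 9.1e-05) and fell by 2.12 ± 0.27 in filtered HDM (edgeR adjusted p = 2.5e-05). MiR-23a-3p was not called in either, at -0.10 ± 0.19 (edgeR adjusted p = 0.714) and -0.0020 ± 0.19 (edgeR adjusted p = 0.993). MiR-24-3p, made at both loci, fell by 0.89 ± 0.24 in unfiltered HDM and fell by 0.91 ± 0.24 in filtered HDM on the log2 scale (edgeR adjusted p = 0.0111 and 0.00744). The difference in response between a member and its counterpart was not tested as such.

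Within a library, the share of each pair that came from the chromosome 9 copy needs no scaling between libraries. MiR-23b-3p made up 40.0% and 41.0% of the miR-23 3p counts in the HF6 and HF7 pellets and 32.5% and 30.5% on plate 1. It made up 53.1% to 56.7% on plates 2 and 3, 55.0% to 57.3% in HDM, and 58.5% in both media libraries. Pellets and plate 1 lay below all other libraries, by more than the widest 95% Wilson interval (1.68 points either side). MiR-27b-3p made up 48.8% and 48.2% of the miR-27 3p counts in the pellets and 50.4% and 47.3% on plate 1. On plates 2 and 3 it made up 76.3% to 77.3%, in unfiltered HDM 80.1% and 81.0%, and in filtered HDM 84.4% and 84.7%, beside 78.2% and 81.4% in the media. HF6 and HF7 of each group differed by at most 3.12 points in these 2 pairs. The third pair did not show this order: miR-24-1-5p made up 25.8% and 16.7% of the miR-24-1-5p and miR-24-2-5p counts in pellets, 17.5% and 20.03% on plate 1, 20.8% to 27.5% on plates 2 and 3 and 21.4% to 30.7% in HDM. Its intervals were wide, up to 14.7 points either side. Fractional values occurred in 10 of 14 libraries for each 3p member, in 4 each for miR-24-1-5p and miR-24-2-5p, and in 0 for miR-23b-5p and miR-27b-5p. They show that some reads were divided among entries.

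**Figure D3:**
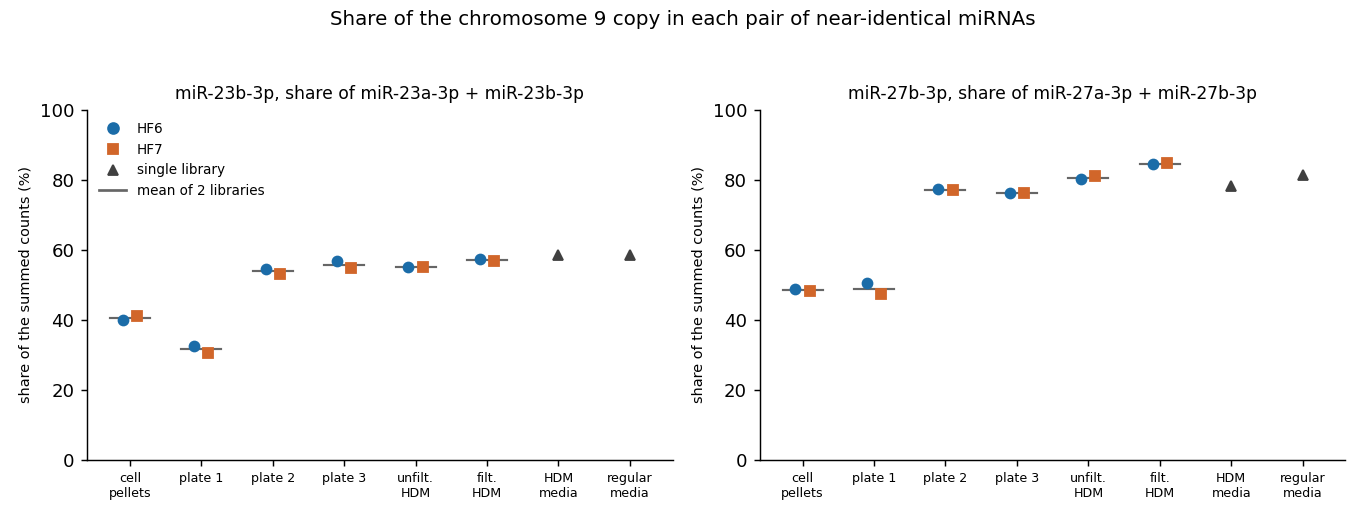
Share (%) of miR-23b-3p in the summed miR-23a-3p and miR-23b-3p counts (left) and of miR-27b-3p in the summed miR-27a-3p and miR-27b-3p counts (right), by library, with lines at the mean of each pair. Pellets and plate 1 hold the lowest shares (30.5% to 41.0% and 47.3% to 50.4%), and filtered HDM holds the highest miR-27b share (84.4% and 84.7%).

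Counts of the 2 arms of a hairpin were set against each other in the same way. A read covers only 1 arm, but the 3p counts include some reads divided among entries. The ratio is not corrected for this or for how well each sequence is captured. MiR-23b had 0.105 5p counts per 1000 3p counts in the HF6 pellet. The HF7 pellet had 0 of 1352, where the 95% Wilson interval reaches 0.283% of the counts of both arms. The ratio was 0.919 ± 0.329 on plate 1, 6.42 ± 0.844 on plate 2 and 5.64 ± 1.2 on plate 3 (SD, n = 2 each). In unfiltered HDM the ratio was 4.58 ± 2.54 and in filtered HDM 3.61 ± 0.740 per 1000. MiR-27b had 10.9 ± 2.39 per 1000 in pellets, 20.6 ± 2.59 on plate 1, 28.3 ± 2.56 on plate 2, 25.1 ± 2.23 on plate 3, 31.4 ± 3.58 in unfiltered HDM and 25.7 ± 2.16 in filtered HDM. For miR-27b the pellets had the fewest 5p reads per 3p read, followed by plate 1. For miR-23b plate 1 lay below plates 2 and 3 and HDM, and only the HF6 pellet was measured below plate 1. The chromosome 19 hairpin miR-27a was also lowest in pellets, at 3.40 ± 0.127 per 1000, with plate 1 next at 11.4 ± 0.0669 and at least 26.7 in the other groups. Above plate 1 the order differed: miR-27a was highest in filtered HDM (44.0 ± 4.74), where miR-27b was below unfiltered HDM and plate 2. MiR-23a had 1.29 per 1000 in the HF6 pellet and 0 counts in the HF7 pellet. On plates 1, 2 and 3 it had 1.48, 1.54 and 1.31 per 1000, so plate 1 lay between plate 3 and plate 2. In unfiltered and filtered HDM miR-23a had 3.54 ± 2.13 and 2.39 ± 0.150 per 1000, above plate 1. No test was made of these ratios.

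**Figure D4:**
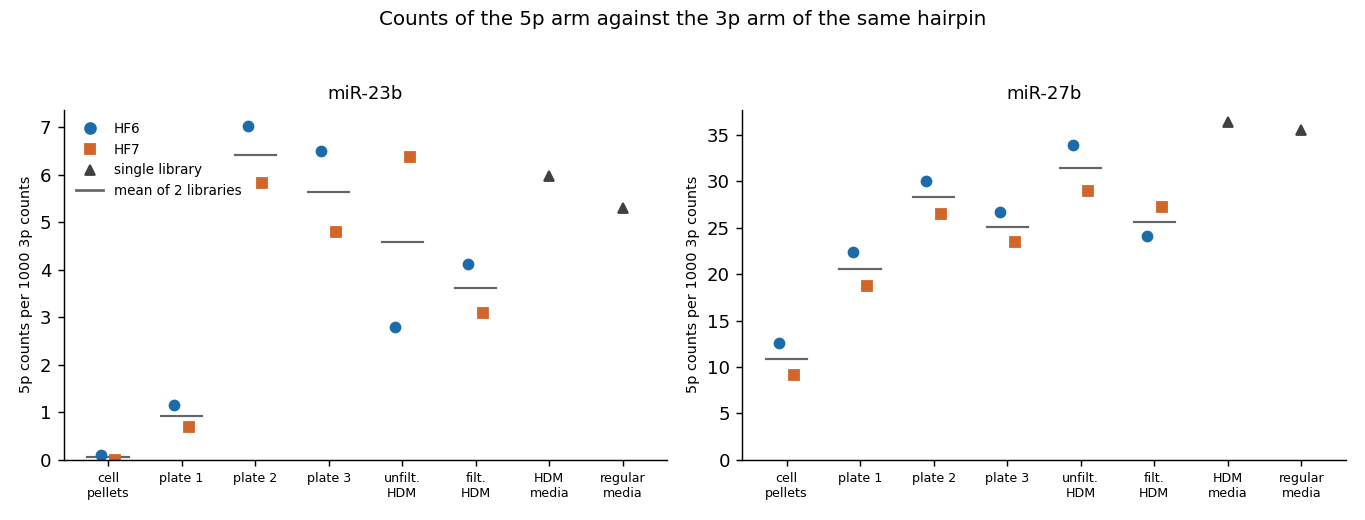
Counts of the 5p arm per 1000 counts of the 3p arm for miR-23b (left) and miR-27b (right), by library, on linear axes from 0. The miR-27b pellets are lowest (mean 10.9) with plate 1 next (20.6), and for miR-23b the HF6 pellet (0.105) and plate 1 (0.919) lie below the other groups. The shallow HF7 pellet is drawn at 0 (0 of 1352 counts). Its 95% Wilson interval reaches 0.283% of both arms, above HF6 unfiltered HDM (0.278%), so it is not placed.

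The media libraries had no replicate, so they carry no test. In HDM media and regular media miR-23b-3p was at 10965 and 10506 CPM, within the range of the 4 HDM samples (8168 to 11133) and above plates 2 and 3. MiR-27b-3p was at 11285 and 13300.2 CPM, the second above all HDM samples. MiR-27b-5p was at 410.2 and 472 CPM, miR-23b-5p at 65.6 and 55.7 CPM, and miR-24-1-5p at 65.0 and 56.7 CPM. For these 3 members both media libraries exceeded all of the HDM samples on the TMM scale. By total counts alone this held only for miR-27b-5p. Regular media then lay below HF7 unfiltered HDM for miR-23b-5p (54.3 against 68.0 CPM) and below HF6 unfiltered HDM for miR-24-1-5p (55.3 against 58.5). With TMM, the 95% counting intervals of regular media include the highest HDM value of each (49.2 to 62.8 beside 52.1, and 50.2 to 63.9 beside 54.0). HDM media over regular media gave 1.18 for miR-23b-5p (exact 95% counting interval 1.0006 to 1.39), 1.04 for miR-23b-3p (1.03 to 1.06) and 1.15 for miR-24-1-5p (0.974 to 1.35). Both miR-27b arms were lower in HDM media, at ratios of 0.868 (0.818 to 0.922) for miR-27b-5p and 0.848 (0.839 to 0.858) for miR-27b-3p. These intervals compare 2 libraries, not 2 media, and the ratios depend on the scaling. By total counts alone miR-27b-5p was at 451 CPM in HDM media and 461 in regular media, and miR-27b-3p at 12412 and 12972, nearer to each other than with TMM. MiR-23b-3p was then farther apart, at 12061 and 10247.

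Over the 14 libraries the members did not share 1 pattern. As a description, Pearson correlations of log2(CPM + 1) were 0.90 between miR-23b-5p and miR-27b-5p, 0.67 between the miR-23b arms, 0.65 between the miR-27b arms and 0.60 between miR-23b-3p and miR-27b-3p. MiR-24-1-5p correlated with the other 4 members at -0.14 to 0.35 and with miR-24-2-5p at 0.69. MiR-23b-5p and miR-27a-3p ran in opposite directions, at -0.90. All points come from the same 14 libraries and share their scaling. Those of miR-23b-5p include its pellet counts of 2 and 0, which lie far from its other values on the log scale.

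Among 178 other miRNAs whose mean was 100 CPM or more, those most like each member over the 14 libraries were named by the highest Pearson correlation. For miR-23b-5p these were miR-92a-1-5p (0.96), miR-1301-3p (0.96) and miR-484 (0.94). Their rank (Spearman) correlations with it were lower, at 0.78, 0.80 and 0.60. For miR-23b-3p they were miR-148a-5p (0.96), let-7b-5p (0.93) and miR-1247-5p (0.93). For miR-27b-5p they were miR-29b-1-5p (0.93), miR-92a-1-5p (0.93) and miR-93-3p (0.91). MiR-27b-3p was closest to miR-744-5p (0.84), miR-25-3p (0.78) and miR-92a-3p (0.76), and miR-24-1-5p to miR-142-3p (0.77), miR-941 (0.74) and miR-15a-5p (0.73). Of these, miR-92a-1-5p appeared for both miR-23b-5p and miR-27b-5p: its mean was 22.9 CPM in pellets, 84.9 on plate 1, 161 on plates 2 and 3 and 201 in HDM.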

How the data were processed

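Small RNA libraries were made with a NEXTflex kit after miRNeasy extraction, per the labels' protocols, which describe extraction for extracellular samples only. The authors deposited expected counts per mature miRNA, not normalised, in 1 table of 1619 entries and 14 sample columns. Adapters and alignment involved cutadapt 2.10 and Bowtie 1.3.1 on GRCh38, per the submitters' processing notes; the rule that divides reads among entries (997 of 22666 values are fractional) is not given in the sources used here. Values were rounded to whole counts, which moves a member by less than 1 count. Depth is 205738 to 4896917 counts a library.

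The 12 replicated libraries formed 6 groups of 2 (pellets, each plate number, unfiltered and filtered HDM) and were fitted together in edgeR 4.0.16: quasi-likelihood test, TMM factors, filterByExpr by group, 521 miRNAs with 99.96% of the counts, 6 residual degrees of freedom from the groups, with a common BCV (biological coefficient of variation) of 0.206. P-values were adjusted over all 521 (Benjamini-Hochberg, threshold 0.05). HF7 against HF6 had the groups as a further term. CPM are TMM-normalised, with factors from all 14 libraries. Simulated data with 510 tested miRNAs and 4-fold changes, for pellets against plates, gave 96% calls with the right sign. At 2-fold 56% were called. The simulation changed only the pellets and used the same fixed dispersion for all miRNAs, with a BCV above 0.206. These percentages are therefore not the power of the fit to the real counts. Arm and paralog ratios were taken per library, on the log2 scale with 0.5 counts added for the check of the pseudocount. DESeq2 1.42.0 was an alternative.

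Named miRNAs were the 5 members, 9 related entries, and per member the 3 others of at least 100 CPM with the highest correlation. The members and lists were chosen with earlier results of these data known. Mature and hairpin sequences come from RefSeq (GRCh38.p14).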

Additional observations from a re-analysis of the deposited data

How the results depend on the processing

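Across the settings tried, single members kept direction and side of the threshold in 680 pairs of member result and setting, turned direction in 36, lost a call in 17 and gained one in 12; the cause was not tested. Precision is limited by the 2 shallow HF7 libraries, by pairs of libraries per group, and by the few counts of miR-23b-5p in pellets and of miR-24-1-5p. With the plates pooled by HF number, which mixes plate 1 with plates 2 and 3 in 1 group, fewer miRNAs were called: 62 in place of 180 in unfiltered HDM against pellets, 107 in place of 215 in filtered HDM against pellets, 0 in place of 3 between the HDM samples, 56 in place of 172 in HDM against plates (1 member in place of 3) and 40 in place of 185 in pellets against plates. Against plates 2 and 3 alone, HDM had 1 called member and 141 calls in all. Against plate 1 alone, pellets had 1 called member and 31 calls in all. Both settings were chosen after seeing the data. Filtered against unfiltered HDM had 6 calls with DESeq2, 5 with no filter, 1 with a minimum of 50 counts and 16 without both shallow HF7 libraries. HF7 against HF6 had 1 with DESeq2 and 3 with no filter.

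Of log2 fold changes that turned direction, hsa-miR-27b-3p summed with its counterpart gave -0.45 (unfiltered HDM against pellets), -0.40 (filtered HDM against pellets), -0.020 (HDM against plates), 0.41 (pellets against plates) and, called, -0.71 (plates 2 and 3 against plate 1). The miR-23 sum there gave -0.68 and was called too. The 3 calls counted in that setting were these 2 sums, both lower, and miR-23b-5p, higher. Each sum includes the chromosome 19 counterpart, and miR-23b-3p and miR-27b-3p by themselves were not called there. For pellets against plates hsa-miR-23b-3p gave 0.036 with DESeq2, 0.042 with RLE, 0.076 summed, 0.025 against plate 1 and 0.014 without the shallow libraries, and hsa-miR-27b-3p gave 0.12 with DESeq2, 0.12 with RLE and 0.0036 against plate 1. For plates 2 and 3 against plate 1 hsa-miR-27b-3p gave -0.031 with DESeq2 and -0.028 with RLE. For HF7 against HF6 it gave -0.0056 with pooled plates and -0.0041 without the shallow libraries. MiR-23b-5p gave -0.014 between the HDM samples with DESeq2 and -0.011 in HDM against plates 2 and 3. With a pseudocount of 5 the log2 ratio of the miR-23b arms in pellets was -9.75, against -12.15.

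Leaving out 1 library at a time gave 73 to 221 calls in unfiltered HDM against pellets, 140 to 262 in filtered HDM against pellets, 0 to 10 between the HDM samples, 96 to 224 in HDM against plates (1 to 4 members), 123 to 229 in pellets against plates and 66 to 206 among plates. Ranges that crossed 0 were -0.20 to 0.70 (hsa-miR-27b-3p) and -0.76 to 1.10 (hsa-miR-24-1-5p) in unfiltered HDM against pellets, and -0.53 to 0.47 (hsa-miR-24-1-5p) in filtered HDM against pellets. Between the HDM samples they were -0.44 to 0.49 (hsa-miR-23b-5p), -0.23 to 0.13 (hsa-miR-27b-5p) and -0.85 to 0.42 (hsa-miR-24-1-5p). In pellets against plates they were -0.25 to 0.014 (hsa-miR-23b-3p) and -0.54 to 0.36 (hsa-miR-27b-3p), among plates -0.054 to 0.14 and in HF7 against HF6 -0.029 to 0.19 (hsa-miR-27b-3p).

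Scaling moved the split of calls. Higher and lower calls in unfiltered HDM against pellets were 98 and 82 with TMM, 89 and 99 with RLE and 164 and 47 with total counts, with medians over all miRNAs of 0.21, 0.07 and 0.64. In filtered HDM against pellets they were 128 and 87, 109 and 119, and 176 and 71; in HDM against plates 87 and 85, 90 and 88, and 128 and 60. In pellets against plates they were 79 and 106, 103 and 87, and 61 and 149. The 3 called members rose under all 3 scalings in each HDM comparison. With the HF number as a replicate block, the counts were 181, 215, 3, 166, 179 and 163 against 180, 215, 3, 172, 185 and 162, with the same number of members. Deviations of HF7 from HF6 correlated at -0.22 to 0.39 between groups (6 of 15 pairs over 0.1), so the numbers are not shown to pair samples.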
